A study of Mus musculus with 5 samples.

Results

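Residual footprints are the ribosome-protected mRNA fragments that remained on brain mRNAs after 30 and 60 min of homoharringtonine (HHT), set here against slices at 0 min. They were read from 3 of the 5 libraries of the series, 1 library per time, and from all 10329 genes of the deposited count table. The slices held hippocampus and cortex of wild-type C57BL/6N male mice aged 28 to 35 days, were 400 µm thick and had recovered for 3 to 4 h before treatment. The 30 min group had 20 µM HHT for 30 min, the 60 min group had it for 60 min, and the 0 min group is labelled with a treatment time of 0. Each pool was made from 10 slices of 2 to 3 mice, and the labels name DMSO at 0.05% as the vehicle. Lysates with cycloheximide, which halts ribosomes, were digested with RNase A and T1. No library of vehicle alone at 30 or 60 min was used here, so time in HHT cannot be told apart from time in vehicle or from further time after slicing.

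HHT binds the large ribosomal subunit and stops ribosomes that have just initiated, while ribosomes already inside a coding sequence keep elongating and leave it at the stop codon. After run-off, footprints inside a coding sequence may come from ribosomes that did not leave it during the treatment. They may also come from fragments that are not those of moving ribosomes, or from other sources. The source of the footprints was not tested here. Neurons hold some mRNAs in transport granules with halted ribosomes. Glia, vessel cells and microglia, the macrophages of brain tissue, add their own mRNAs to the same lysate.

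The residual ratio of a gene is its mean footprint density at 30 and 60 min divided by its density at 0 min. Density is the deposited count per kilobase of coding sequence (CDS), less 600 nt for its ends, over 1 factor per library. A ratio of 1 would mean as many footprints as before HHT on that scale, and 0 would mean none. A relative ratio is the log2 of a gene's residual ratio over the median of all genes, so 0 is the typical mRNA. Intervals in brackets are exact 95% binomial intervals on the summed counts of the 30 and 60 min libraries against the 0 min library. They cover counting error only, and no group has a replicate, so none of them contains the spread between pools.

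Total counts were 1504748 at 30 min and 1346175 at 60 min, against 7155147 at 0 min, with medians of 42 and 38 counts per gene against 208. Defining markers of the labelled tissue were present. At 0 min, Camk2a of excitatory neurons had 24789 counts, Gad1 of inhibitory neurons 4859 and Slc1a2 of astrocytes 28406. Every gene of the table had at least 11 counts at 0 min and a CDS of 603 to 24099 nt. Genes with short CDS, and genes seen only after HHT, were therefore not covered.

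Nearly every mRNA had far fewer footprints after HHT, and the remainder differed widely between genes. The median residual ratio was 0.203, with quartiles of 0.154 and 0.270 and a 5th and 95th percentile of 0.0901 and 0.438. Taken alone, the 30 min library gave a median of 0.223 and the 60 min library 0.181, and the median density at 60 min was 0.815 of that at 30 min. Among the 7786 genes with at least 100 counts over the 3 libraries, 172 had a residual ratio above 0.5 and 54 one under 0.05. Of all 10329 genes 329 had a ratio above 0.5, and 17 had no count at either late time. At 30 min alone 16 genes had a density above that at 0 min, and at 60 min 1 gene did. With the deposited library factors, edgeR's quasi-likelihood test called 9466 of 9679 genes lower at 30 and 60 min (97.8%, Benjamini-Hochberg adjusted p under 0.05) and 0 higher. No gene had an unadjusted p under 0.05 in the higher direction in that fit, and DESeq2 also called 0 higher.

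The rest of the comparison is relative to the typical mRNA. A gene was counted as keeping more when its ratio was at least 2-fold above the median in the mean and in both late libraries, and as keeping less when it was at least 2-fold below. Of the 7786 genes with at least 100 counts over the 3 libraries, 269 kept more (3.45%) and 228 kept less (2.93%). That minimum does not treat both directions alike. The genes that kept less had medians of 15.5 and 14 late counts and met it mostly through the library before HHT (median 254.5). Those that kept more had medians of 66 and 67 late counts, against 127 before HHT. The shares should therefore not be set against each other. With TMM scaling, which sets the typical gene to no change, edgeR called 1714 of 9679 genes higher (17.7%) and 1610 lower (16.6%). That test and the one with the deposited library factors each have 1 residual degree of freedom. The difference between the 30 and 60 min libraries is their only measure of spread. The calls of both therefore compare these 3 libraries and not conditions, and no p-value of a single gene is given. DESeq2 called 346 higher and 155 lower of 6676 genes with an adjusted p, and a fit with all 5 libraries in 3 phases called 684 higher and 577 lower. No measure of mRNA amount was used here, so fewer ribosomes per mRNA and fewer mRNAs cannot be told apart, nor can fewer cells of a type and less RNA per cell.

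**Figure D1:**
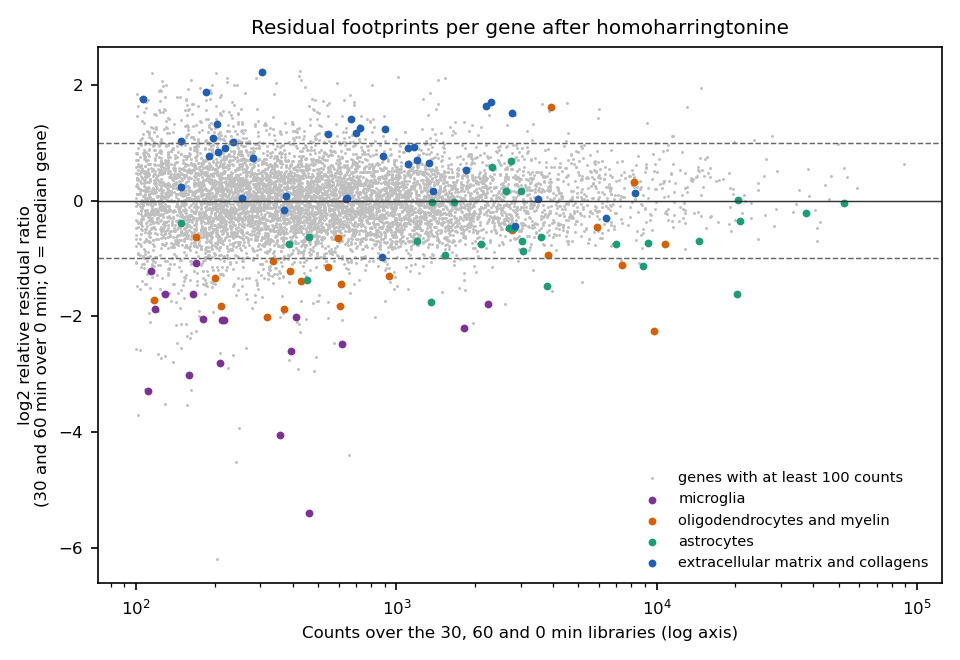
Relative residual ratio (log2, 0 is the median gene) of each gene with at least 100 counts and at least 1 late count, against its counts summed over the 30, 60 and 0 min libraries on a log axis. Dashed lines mark 2-fold above and below the median. Microglial genes lie mostly below the lower line, oligodendrocyte genes around it, astrocyte genes between it and the median, and matrix genes mostly above the median.

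The 12 genes with the highest residual ratio, among those with at least 100 counts at 0 min and 200 over the 3 libraries, had ratios of 0.791 to 0.956. Obsl1, a cytoskeletal adaptor related to obscurin (chromosome 1, 75485825 to 75506486 in GRCm38.p6), had 129 counts at 30 min and 144 at 60 min, against 154 at 0 min. Its density was 30.4 and 30.7, against 32.0, and its ratio was 0.956 (0.782 to 1.17). Both late libraries thus lay close to the 0 min library. Col3a1, the collagen III chain made by fibroblasts (chromosome 1, 45311538 to 45349706), had 98 and 96 counts against 111, a ratio of 0.945 (0.742 to 1.20). Grin2c, an NMDA receptor subunit (chromosome 11, 115249169 to 115267297), had 139 and 125 counts against 158, a ratio of 0.905 (0.737 to 1.10). Jph3, a junctophilin that joins the endoplasmic reticulum to the plasma membrane of neurons, had 424 and 465 counts against 554, a ratio of 0.865 (0.777 to 0.964).

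The other members of that group share no single function. They are Gm21949, Skida1, Phlda1, Otub2, Dnaaf2, Egln1, Pgr and Cmpk2. Phlda1 had the most counts among all 12, with 495 and 458 against 588 (ratio 0.878, 0.788 to 0.970). Otub2, a deubiquitinating enzyme, had 139 and 126 counts against 166 (0.865, 0.706 to 1.05). Egln1, a prolyl hydroxylase that senses oxygen, had 107 and 101 against 136 (0.828, 0.661 to 1.03), and Pgr, the progesterone receptor, 223 and 264 against 322 (0.814, 0.707 to 0.942). The interval reached 1 in 7 of the 12. Gm21949 lies on chromosome 3 and carries another symbol in the current annotation, Iqschfp. It spans the same stretch as Schip1, whose ratio was 0.230, so the split of reads between the pair is uncertain.

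The 12 genes with the lowest ratio, under the same count minimums, had ratios of 0.0028 to 0.0313, and most encode proteins known from myeloid immune cells. Nlrp3, the inflammasome sensor (chromosome 11, 59541569 to 59566955), had 1 count at 30 min and 0 at 60 min, against 204 at 0 min (ratio 0.0028, 0.0001 to 0.0149). Plek, pleckstrin of blood-derived cells and microglia, had 3 and 1 counts against 458 (0.0048, 0.0013 to 0.0121). Tlr2, a receptor for bacterial lipoproteins, had 1 and 3 against 238. These 3 genes had almost nothing in the late libraries. They and the rest of the 12 met the count minimums through the 0 min library alone, except Ptprc, which had 199 counts there. Il1a, the cytokine interleukin 1 alpha, had 2 and 10 counts against 646, and its density of 10.7 and 48.2 stood against 3033 at 0 min. C3ar1, the C3a complement receptor, had 3 and 5 against 350, and Gpr84, a receptor for medium-chain fatty acids, 3 and 3 against 243. Cd14 and Cd180, which take part in lipopolysaccharide sensing, had 15 and 7 counts against 459 and 10 and 10 against 398. Lcp1, Ptprc, Plau and Mpeg1 completed the group with ratios of 0.0273, 0.0292, 0.0301 and 0.0313. C5ar1, the C5a receptor, had 0 and 0 counts against 138, which is at least 85.3-fold lower when 3 counts over both late libraries are taken as the floor.

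**Figure D2:**
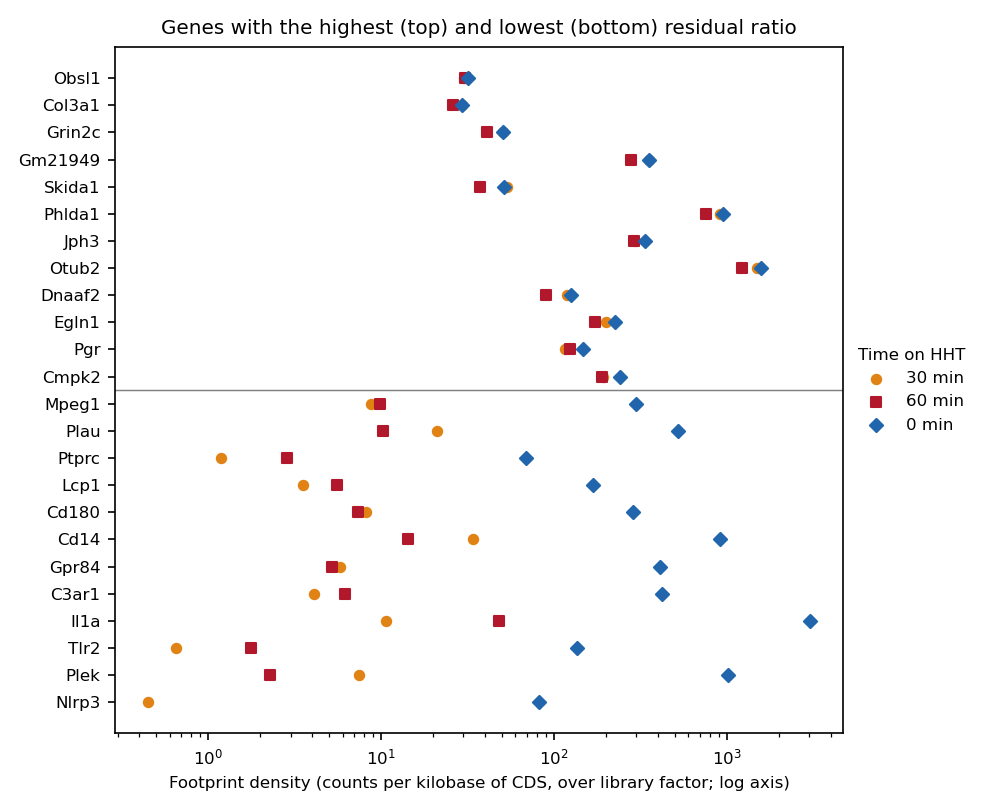
Footprint density of the 12 genes with the highest (top) and the 12 with the lowest (bottom) residual ratio at 30 min (circles), 60 min (squares) and 0 min (diamonds), in counts per kilobase of CDS over the library factor, on a log axis. In the top group the symbols nearly coincide, and in the bottom group the late symbols lie far to the left of the 0 min diamond. Nlrp3 had 0 counts at 60 min and has no square.

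The genes that kept more had a median of 66 and 67 counts in the late libraries, against 127 at 0 min, and a median ratio of 0.529. Those that kept less had medians of 15.5 and 14 counts, against 254.5, and a median ratio of 0.0713. Both sets already stood apart at the earlier times. From 5 to 10, 30 and 60 min, the median ratio of the first set was 0.583, 0.665, 0.570 and 0.491, and that of the second was 0.178, 0.114, 0.0791 and 0.0629. Over all genes with the minimum of counts it was 0.345, 0.270, 0.224 and 0.181. These values share the single 0 min library, and the sets were chosen on the last 2 of the 4 times. Of the higher set 41 genes and of the lower set 67 genes belong to any of the 42 gene lists described next.

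The lists cover 11 cell types and 31 functions, of which 41 have at least 5 members in the count table. Their medians are given with no test and are read against 0, the median of all genes. Members that kept more or less are read against the shares of 3.45% and 2.93% of genes that did so. Members that edgeR called are read against 17.7% higher and 16.6% lower of the 9679 genes tested, and several list counts lie near those shares. Low members can reach edgeR's mean of 10 counts through the 0 min library too. Each share is the background for its own direction only, since neither minimum of counts treats both directions alike. Median relative ratios lay above 0 in 19 lists and below 0 in 22. Among cell types they were above in 5 and below in 5.

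Microglial markers had the lowest median of the 41 lists. Of 32 listed, 28 were measured, and 27 of these lay below the median gene, with a median ratio of 0.0460 and a median relative ratio of -2.15. Of the 20 with at least 100 counts, which most reached through the 0 min library, 17 kept less and 0 kept more. edgeR called 25 of the 26 tested members lower. Together the members took 0.0270% of all counts at 30 min and 0.0316% at 60 min, against 0.118% at 0 min.

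Receptors that define microglia were among the low genes. Csf1r, the receptor for colony-stimulating factor that keeps these cells alive, had 73 and 64 counts against 1677 (ratio 0.0443, 0.0367 to 0.0524). Cx3cr1, the fractalkine receptor, had 8 and 7 against 165, and P2ry12, a purine receptor, 7 and 9 against 98. Their densities at both late times lay far below 0 min. The complement chains C1qa, C1qb and C1qc had 5 and 2, 8 and 10, and 1 and 3 counts, against 153, 199 and 67. Ctss, a lysosomal protease, had 20 and 19 against 581. At the upper end stood Mertk, a phagocytosis receptor also made by astrocytes, with 85 and 92 counts against 463 (0.206, 0.172 to 0.246). Cd68 followed with 9 and 17 against 143 (0.0968). Tmem119 and P2ry13, with 19 and 17 counts at 0 min, had ratios of 0.171 and 0.154 and were too thinly counted to be called.

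Of 24 markers of perivascular macrophages and blood leukocytes only 7 were measured. Their median relative ratio was -0.04, or -0.40 over the 5 with at least 100 counts. edgeR called Dab2, Cd44 and Coro1a lower and 0 higher, and 0 of the 5 with at least 100 counts kept more or less. Mrc1, the mannose receptor of perivascular macrophages, had 33 and 25 counts against 159 (0.199, 0.143 to 0.267), which is at the median gene. Dab2 had 20 and 11 against 191 (0.0890), and Cd44 17 and 11 against 167 (0.0916). The medians of this list at 30 and 60 min had opposite signs.

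Genes of inflammation and cytokines came next from the bottom, with a median relative ratio of -1.53 over 25 measured members of 33. Of the 20 with at least 100 counts, which low members such as Tnf and Il1b reached only through the 0 min library, 12 kept less and 0 kept more. edgeR called 19 of 23 lower and 1 higher. Microglial markers, of which this list holds 0, moved the same way, and their part in it was not tested. Secreted signals, receptors and inhibitors of the pathway were all among the low members. Tnf, the cytokine, had 1 and 6 counts against 118, and Il1b 2 and 5 against 114. Tnfaip3 and Nfkbia, which restrain NF-kappa B, had 18 and 19 against 539 and 58 and 55 against 867. Icam1, an adhesion molecule, had 29 and 22 against 568. The subunits of NF-kappa B itself had ratios of 0.0806 for Nfkb2, 0.0946 for Rela and 0.103 for Nfkb1. The exception at the upper end was Cebpb, a transcription factor, which kept 57 and 70 counts against 214 (0.319). Il6st, the shared receptor of interleukin 6 signals, stood near the median gene with 279 and 225 against 1216 (0.225).

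Oligodendrocyte and myelin markers had a median relative ratio of -1.22, and 21 of 23 measured members lay below the median gene. Of the 22 with at least 100 counts, 11 kept less and 1 kept more, while edgeR called 20 lower and 2 higher. Cnp, a myelin enzyme, had 433 and 271 counts against 9041 (ratio 0.0426, 0.0388 to 0.0453). The lineage factors Olig2 and Sox10 had 15 and 12 against 292 and 24 and 35 against 550. Mog, a surface protein of myelin, had 41 counts at 30 min and 12 at 60 min against 337, and was thus lower at 60 min than at 30 min. The exceptions were Enpp2, autotaxin, with 1521 and 1077 counts against 5593 (0.253, 0.239 to 0.262), and Bcas1. Bcas1, a protein of oligodendrocytes that are starting to make myelin (chromosome 2, 170343973 to 170427911), had 1116 and 989 counts against 1837. Its ratio was 0.621 (0.580 to 0.658), far above that of Cnp. Its relative ratio was 1.61 from the counts but 0.995 from the table of rounded TPM, just under 2-fold, so there the one high call of this list is lost.

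Precursors of these cells and astrocytes stood between the extremes. The 17 precursor markers had a median relative ratio of -0.63, with 12 below the median gene, 3 that kept less and 0 that kept more. Pdgfra, the growth factor receptor that defines them, had 114 and 117 counts against 1590 (0.0785, 0.0679 to 0.0900). Its relative ratio was -1.37 from the counts but -0.44 from the table of rounded TPM, where it was not 2-fold below the median gene. Vcan, a proteoglycan, had 87 and 54 against 741 (0.104), whereas Olfm2 and Megf11 had ratios of 0.253 and 0.244. The proteoglycan receptor Ptprz1, with 1612 and 1156 counts against 8241, had a ratio of 0.183.

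Astrocyte markers had a median relative ratio of -0.62 with 24 of 30 below the median gene. Of 29 with at least 100 counts 5 kept less and 0 kept more, and edgeR called 20 lower and 3 higher. Glul, glutamine synthetase, which clears glutamate and ammonia, had 1180 and 1040 counts against 18067 (0.0666, 0.0634 to 0.0692). Sox9, an astrocyte transcription factor, had 70 and 66 against 1219 (0.0604), and Aldoc, the aldolase of astrocytes, 713 and 573 against 7568 (0.0923). The membrane proteins were spread more widely. The glutamate transporters Slc1a3 and Slc1a2 had ratios of 0.122 and 0.174 and the water channel Aqp4 0.199. The neurotensin receptor Ntsr2 had 478 and 559 counts against 1719 (0.325, 0.301 to 0.352), and the GABA transporter Slc6a11 had 480 and 356 against 1497 (0.304, 0.276 to 0.328).

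Neuronal markers lay above the median gene in each of the 3 lists. Pan-neuronal genes had a median relative ratio of 0.26, with 19 of 26 above the median gene, 1 that kept more and 0 that kept less. The neurofilament genes were at the top. Nefh, the heavy chain, had 316 and 272 counts against 665 (0.480, 0.426 to 0.533), and Ina, internexin, 646 and 680 against 1846 (0.388, 0.361 to 0.416). Nefl and Nefm had ratios of 0.301 and 0.273. Gap43, a growth cone protein, had 40 and 37 against 353 (0.118, 0.0907 to 0.151), and Rbfox3, a splicing regulator, 176 and 157 against 1244 (0.145). These 2 genes and Nsf were the members that edgeR called lower, against 12 called higher.

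Excitatory and inhibitory neuron markers had medians of 0.21 and 0.38. Among excitatory markers 20 of 27 lay above the median gene, and none of the 26 with at least 100 counts kept 2-fold more or less. Slc17a7, the vesicular glutamate transporter, had 1892 and 2000 counts against 6302 (0.333). Camk2a, the kinase of synaptic plasticity, had 5364 and 5199 against 24789 (0.231), and Rorb, a layer 4 transcription factor, 52 and 42 against 458 (0.112). Among inhibitory markers 18 of 24 lay above the median gene and 3 kept more. Reln, a secreted protein of certain interneurons whose CDS has 10382 nt, gave 1782 and 1203 counts against 2990 (0.545, 0.511 to 0.566). Lhx6, an interneuron transcription factor, had 43 and 40 against 64 (0.702), and Grin2d, an NMDA receptor subunit, 140 and 153 against 246 (0.642, 0.540 to 0.764). The enzymes that make GABA, Gad1 and Gad2, lay just under the median gene with ratios of 0.194 and 0.169, so the high members do not include the defining enzymes. Adarb2, an RNA-binding protein of some interneurons, had 26 and 14 against 254 (0.0864).

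Vessel markers are given by cell type. The 21 endothelial genes had a median relative ratio of 0.02, with 12 above and 9 below the median gene, and that median changed sign between the late libraries. Pecam1, an adhesion molecule of vessel lining, had 17 and 9 counts against 119 (0.120, 0.0739 to 0.181), and Cdh5, the vascular cadherin, 52 and 67 against 306 (0.209). Bsg, basigin, was the one that kept more, with 2025 and 2450 counts against 4670 (0.515, 0.496 to 0.538). Its relative ratio was 1.34 from the counts but 0.81 from the table of rounded TPM, where that call is lost. It is also made by neurons and glia.

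Markers of mural cells and vascular fibroblasts had the highest median of the cell types, 0.80. Of 25 listed, 19 were measured, 15 of them above the median gene, and 8 of the 15 with at least 100 counts kept more while 0 kept less. As a whole they took 0.161% and 0.190% of all counts at 30 and 60 min, against 0.0801% at 0 min. Col1a1 and Col1a2, the collagen I chains, had 586 and 691 counts against 1041 and 578 and 617 against 1022, with ratios of 0.660 (0.609 to 0.718) and 0.631. Anpep, an aminopeptidase of pericytes, had 41 and 49 against 75 (0.646), and Slc47a1, a transporter of meningeal fibroblasts, 36 and 30 against 61 (0.587). Vtn, vitronectin, had 496 and 500 against 1537 (0.350). Pdgfrb, the receptor that defines mural cells, had 90 and 71 counts against 330 (0.265, 0.217 to 0.319) and was not called. Of the 4 members below the median gene the lowest was Des, with a ratio of 0.0916 and under 100 counts at 0 min. Without the 3 genes shared with the matrix list, 16 members had a median of 0.77, and 5 of them kept more.

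Markers of ependyma and choroid plexus were represented by 4 of 18 genes. Kl, klotho of choroid plexus, had 74 and 62 counts against 88 (0.839, 0.633 to 1.10), and Foxj1, the regulator of motile cilia, had 4 and 13 against 41 (0.218).

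**Figure D3:**
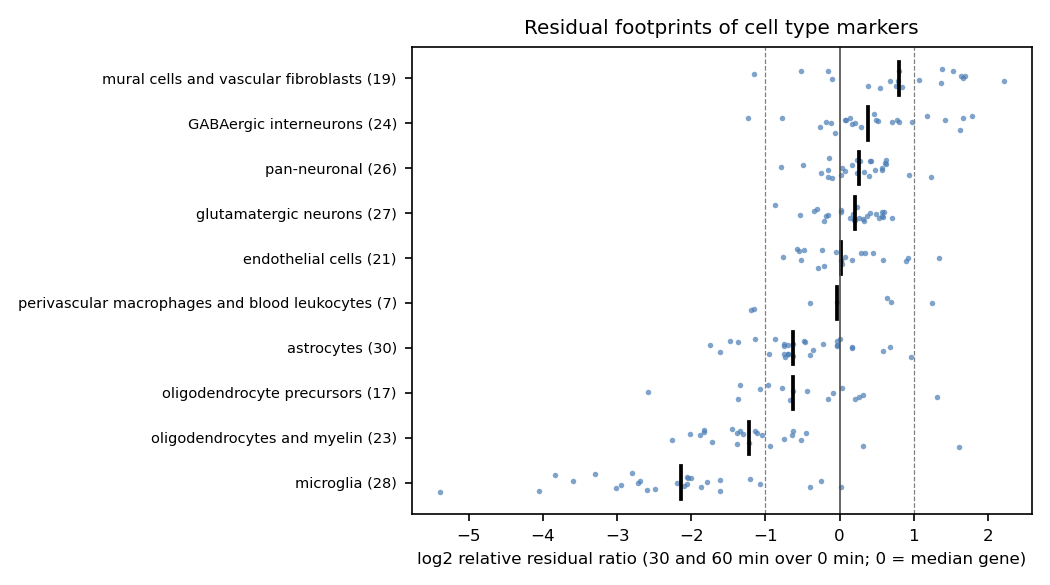
Relative residual ratio (log2, 0 is the median gene) of each measured marker with at least 1 late count, in the 10 cell type lists with at least 5 measured members, whose number stands in brackets. Black bars are list medians and dashed lines mark 2-fold. Medians run from 0.80 in mural cells and vascular fibroblasts to -2.15 in microglia, with the 3 neuronal lists above 0 and the 4 lists of glial cells and microglia below it.

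Among the function lists, extracellular matrix and collagens had the highest median, 0.81. Of 38 measured genes 34 lay above the median gene, 12 of 37 with at least 100 counts kept more and 0 kept less, and edgeR called 26 higher and 3 lower. The collagen, laminin and glycoprotein genes at the top are made mainly by fibroblasts, vessel cells and meninges. Fn1, fibronectin, had 741 and 689 counts against 1339 (ratio 0.578), and Hspg2, perlecan, 160 and 175 against 333 (0.542). Lama5, a laminin chain, had 47 and 52 against 105 (0.508), and Col6a1 159 and 184 against 379 (0.487). Cilp2, a cartilage matrix protein, had 33 and 76 counts against 77, so its late libraries differed. The 4 members below the median gene were proteoglycans and tenascins made by glia and neurons. Their ratios were 0.104 for Vcan, 0.150 for Tnr, 0.164 for Bcan and 0.182 for Tnc. Ncan lay just above the median gene at 0.223, and the rest of the list, with other genes of glia and neurons, also lay above it. The basement membrane chains Col4a1 and Col4a2 were near the list's median ratio of 0.356, at 0.321 and 0.317. Without the 3 genes shared with the mural list the median was 0.77, with 9 of 35 that kept more. The summed share of mural and fibroblast markers (0.161% and 0.190%, against 0.0801%) includes the 3 shared genes, Col1a1, Col1a2 and Col3a1. It is therefore not separate from the matrix values. Without these genes the mural markers had a median of 0.77, and their part in the matrix values was not tested.

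Lists of ion channels and pumps had medians above the typical mRNA, with few genes past 2-fold. Sodium, HCN and calcium channels with their partners had a median of 0.58, and 27 of 30 lay above the median gene. edgeR called 21 higher and 0 lower, but Jph3 was the 1 gene that kept 2-fold more. Cacna2d2, an auxiliary calcium channel subunit, had 183 and 183 counts against 501 (0.395, 0.343 to 0.452), and the pore subunit Cacna1a 557 and 496 against 1452 (0.393). The cytoplasmic beta subunits Cacnb1 and Cacnb2 were the lowest, with 202 and 233 against 1226 (0.191) and 62 and 55 against 329 (0.193), although Cacnb3 had a ratio of 0.370. Pumps had a median of 0.41 with 13 of 15 above the median gene. The glial pump subunit Atp1b2 had 288 and 290 against 2131 (0.147).

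Potassium channels had a median of 0.34, with 29 of 36 above the median gene. Kcnq5 had 243 and 197 counts against 559 (0.428, 0.374 to 0.482) and Kcnc1, the channel of fast-spiking cells, 336 and 309 against 873. Kcnab1, a cytoplasmic auxiliary subunit, had 106 and 91 against 832 (0.128), and Kcnj10, the channel of glia, 210 and 138 against 1079 (0.176).

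All synaptic lists had medians above 0. Postsynaptic density and glutamate receptor genes had a median of 0.38, with 41 of 49 above the median gene, 28 called higher by edgeR and 1 lower. Besides Grin2c and Grin2d, the scaffold gene Shank3 kept more, with 420 and 405 counts against 854 (0.523). The obligate NMDA subunit Grin1 was closer to the typical mRNA, with 3065 and 2800 against 12095 (0.263), as were Grin2a at 0.231 and Grin2b at 0.264. Grm3, a glutamate receptor also made by astrocytes, was the one called lower, with 366 and 338 against 2615 (0.146). Synaptic adhesion genes had a median of 0.38 with 30 of 34 above the median gene and 0 past 2-fold, from Cntn4 at 0.387 and Cadm3 at 0.348 to Nfasc at 0.182. GABA receptors had a median of 0.27 with 13 of 16 above, among them Gabrd, with 189 and 183 counts against 573 (0.351).

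Presynaptic genes of vesicles and release had a lower median of 0.12, with 23 of 38 above the median gene. The active zone scaffolds Pclo and Bsn, whose CDS have 14592 and 11829 nt, were the highest. Pclo had 3401 counts at 30 min and 1718 at 60 min against 6389, with ratios of 0.604 and 0.276 in turn, and Bsn had 2795 and 1870 against 6436, with 0.493 and 0.299. Both kept clearly less at 60 min than at 30 min. Rab3a and Doc2a, small vesicle proteins, had ratios of 0.147 and 0.138. Neuropeptides, granins and their processing enzymes had a median of 0.32 with 15 of 16 above the median gene, and Penk, the enkephalin precursor, kept more with 63 and 58 counts against 126 (0.520).

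Motors and giant scaffolds had a median of 0.29 with a wide spread, and 8 of 42 kept more and 0 kept less. Obsl1, described above, was the highest member (0.956). Sptbn1, the widely made beta spectrin (chromosome 11, 30099395 to 30268384), had 4560 and 4179 counts against 6048 (0.783, 0.754 to 0.805). Sptbn4 had a ratio of 0.467 and the alpha chain Sptan1 one of 0.443. The linkers Dst and Macf1 had ratios of 0.654 and 0.648, and Dync1h1, the heavy chain of dynein, had 4007 and 2940 counts against 6103 (0.620). The smaller chains of the same motor were below the median gene, with 0.151 for Dync1i1 and 0.157 for Dync1li1. Myo6, a myosin that walks to the minus end of actin, had 264 and 201 counts against 2094 (0.121, called lower).

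Chaperones and processing enzymes of the endoplasmic reticulum had a median of 0.21 with 25 of 30 above the median gene. Ero1l, an oxidase of that compartment, had 90 and 108 counts against 242 (0.440), and Ssr1, a translocon protein, 275 and 225 against 724 (0.375). The main chaperone Hspa5 was an exception with 2087 and 1773 against 13276 (0.158, 0.151 to 0.163). Lysosomal proteins had a median of -0.01, with Smpd1 at 0.356 among the high members, and that median changed sign between the late libraries.

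Among cytosolic lists, all 16 glycolytic enzymes lay below the median gene, with a median of -0.32. Aldoa and Eno2 came closest to it, with 4551 and 4630 counts against 25272 (0.196) and 1723 and 1456 against 9431 (0.183). Pfkp had 553 and 495 against 4770 (0.119). Proteasome subunits had a median of -0.29 with 25 of 30 below, from Psmd8 at 0.255 to Psmb6 at 0.0852. Cytosolic chaperones had a median of -0.20. In that list Hspa8, the constitutive heat shock protein, had 9553 and 8374 counts against 40918 (0.238), whereas Hsp90aa1 had 4878 and 3942 against 32688 (0.147) and Bag3, an inducible co-chaperone, 19 and 11 against 326 (0.0504). Actins and tubulins had a median of -0.33. Actb, cytoplasmic actin, had 4016 and 3755 against 33635 (0.125, 0.122 to 0.128), and Tubb3 and Tubb5 had ratios of 0.256 and 0.270. Near-identical tubulin and actin copies may share reads, so the values of single copies are uncertain.

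The tricarboxylic acid cycle had a median of -0.11 with 14 of 22 below the median gene, and edgeR called 7 lower and 1 higher. The nuclear-encoded respiratory chain had -0.18 with 15 of 18 below, 5 called lower and 1 higher. Mitochondrial ribosomal proteins had 0.10 with 16 of 25 above, 2 called higher and 0 lower. None of their genes with at least 100 counts (22, 17 and 25) kept 2-fold more or less. Ndufv1, a complex I subunit, had 209 and 213 counts against 1587 (0.144).

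The translation apparatus had lists on both sides of the median gene. Cytosolic ribosomal proteins had a median of 0.23, with 13 of the 17 measured above the median gene. The rest of the 25 listed were not analysed here. Rpl10a kept more with 64 and 54 counts against 113 (0.567, 0.431 to 0.735), and Rpsa had 259 and 218 against 742 (0.349). These genes have processed copies elsewhere in the genome, so the assignment of their reads is uncertain. Aminoacyl-tRNA synthetases had a median of -0.38 with 18 of 20 below the median gene, edgeR called 11 lower and 0 higher, and 0 were past 2-fold. Rars had 135 and 155 counts against 683 (0.229) and Dars 131 and 121 against 1176 (0.116). Initiation factors had a median of -0.30 with members on both sides. Paip1, a partner of the poly(A) binding protein, had 380 and 380 counts against 1072 (0.383), and Eif3f, a subunit of eIF3, 264 and 283 against 807 (0.366). Eif5, which triggers the release of phosphate at the start codon, had 151 and 126 against 1747 (0.0861, 0.0750 to 0.0971). Elongation and termination factors had a median of -0.25. In that list Eef1a1, which brings aminoacyl-tRNA to the ribosome, had a ratio of 0.299, and Eef1g had 0.309. Abce1, the recycling factor, had 174 and 125 against 1278 (0.128) and the kinase Eef2k 22 and 24 against 293 (0.0847).

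Immediate early genes, which neurons and glia induce on activity, had a median of -0.49 and members at both ends. Of 32 with at least 100 counts 9 kept less and 1 kept more. Fos had 249 and 196 counts against 3522 (0.0687), Fosb 61 and 98 against 1808 (0.0470) and Zfp36, an mRNA decay factor, 19 and 14 against 380. Arc, the capsid-like plasticity protein of dendrites, stood apart from them with 445 and 399 against 1180 (0.388, 0.353 to 0.422), as did Dusp5 with 67 and 76 against 217 (0.355). Jund, the AP-1 subunit that is made without stimulus, kept more with 409 and 490 against 925 (0.523, 0.478 to 0.575), whereas Jun and Junb had ratios of 0.0859 and 0.153. The Egr family was on both sides of the median gene, with 0.157 for Egr1, 0.222 for Egr4, 0.229 for Egr3 and 0.232 for Egr2.

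Splicing factors had a median of -0.34, with 37 of 49 below the median gene, and edgeR called 24 lower and 2 higher. Ptbp1, which represses neuronal exons and is made mainly outside neurons, had 30 and 41 counts against 753 (0.0506, 0.0393 to 0.0649), and its neuronal relative Ptbp2 had 374 and 334 against 1963 (0.196). Srsf5 and Srsf7 had 151 and 106 against 2367 (0.0592) and 16 and 15 against 255 (0.0658). Srrm3, a regulator of microexons in neurons, had 107 and 103 against 304 (0.374), and Rbfox2 337 and 400 against 1455 (0.273). Chromatin modifiers had a median of 0.07, and 30 of 55 lay above the median gene. Their highest members were histone H3 lysine 4 methyltransferases. Kmt2a had 453 and 220 counts against 650, with ratios of 0.791 and 0.348 at 30 and 60 min, and Kmt2d 847 and 421 against 1394, with 0.689 and 0.310. Both missed the 2-fold rule at 60 min, while Kmt2b (0.466) and the demethylase Tet3 (0.449) met it at both times. Kdm6b, a histone H3 lysine 27 demethylase, had 43 and 33 against 366 (0.113). When each gene was set against genes of like CDS length, the median of this list was -0.11, and that of the motors and scaffolds was 0.13.

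Cholesterol synthesis, mTOR and PI3K signalling, the vacuolar proton pump and the integrated stress response had medians of -0.19, -0.20, -0.23 and -0.30. Hmgcs1, the first enzyme committed to the sterol pathway, had 635 and 488 counts against 6150 (0.0993, 0.0923 to 0.105), while Sc5d, which acts late in it, had 106 and 89 against 352 (0.301). Akt1s1 and Tsc1, inhibitors of mTOR, had ratios of 0.371 and 0.333, and Akt2 and Irs2 0.110 and 0.120. The serine synthesis enzymes Psat1 and Phgdh, which the stress response induces, had 83 and 74 against 969 (0.0878) and 95 and 61 against 929 (0.0917).

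**Figure D4:**
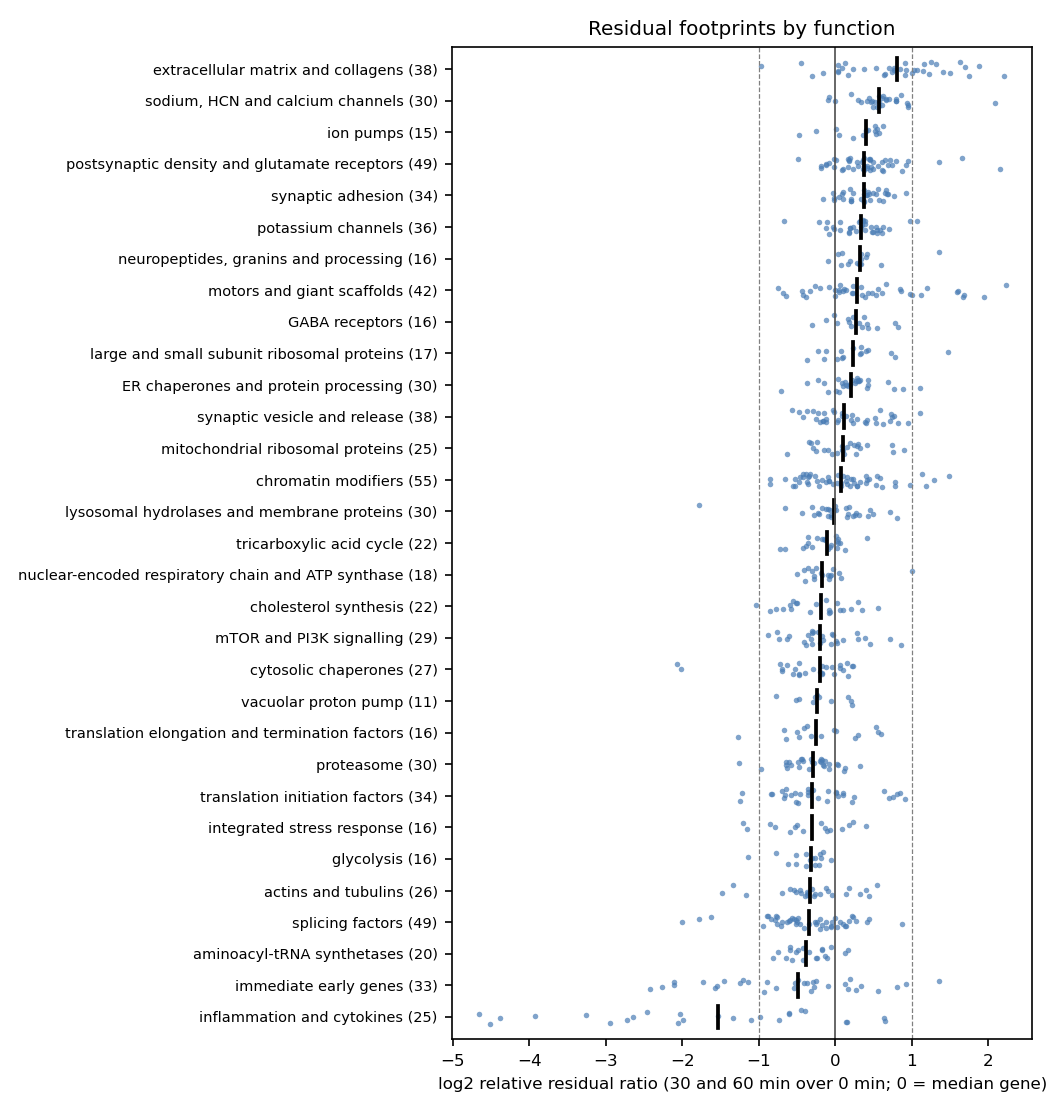
Relative residual ratio (log2, 0 is the median gene) of each measured member with at least 1 late count in the 31 function lists, with the number measured in brackets. Black bars are list medians and dashed lines mark 2-fold. Medians run from 0.81 in extracellular matrix and collagens to -1.53 in inflammation and cytokines, and 14 of the 31 are above 0.

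As a survey that does not use the lists, genes were grouped by the letters at the start of their symbol. This grouping was made after the values were seen, and 89 such groups had at least 10 members. The collagen (Col) genes were highest, with a median of 1.05, 23 of 24 members above the median gene and 11 that kept more. The pore and auxiliary calcium channel genes (Cacna) followed with 0.61 and 11 of 11 above. Then came Fbxl (0.52), protocadherins (Pcdh, 0.52), cadherins (Cdh, 0.42) and the palmitoyl transferases (Zdhhc, 0.42). All 14 synaptotagmins (Syt) and 61 of 76 Tmem genes, which code for transmembrane proteins, lay above the median gene. At the bottom were the Cd surface antigens (-0.44), the Psmd proteasome subunits (-0.44), the Ddx RNA helicases (-0.35, 5 of 30 above) and the Aldh dehydrogenases (-0.34, 0 of 12 above).

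The residual ratio went only weakly with the length of the CDS, except among the longest. The median ratio was 0.192 in 1037 genes of 603 nt to under 1000 nt, 0.211 in 761 genes of 3000 to under 4000 nt and 0.314 in 121 genes of 8000 nt or more. In that last class the median was 0.378 at 30 min and 0.244 at 60 min, against 0.209 and 0.175 in the shortest. Of these 121 genes 18 kept more (14.9%, against 3.45% of all) and 0 kept less. Across the 7786 genes Spearman's rho between ratio and CDS length was 0.12, and 0.15 at 30 min and 0.09 at 60 min, as a description, since genes of 1 library share its depth and are not replicates. Of the genes that kept more 16.0% had a CDS of 4000 nt or more, against 9.84% of all, and of those that kept less 1.75% did. Nefh, Jund, Bcas1, Penk, Bsg and Rpl10a are high genes with CDS of 654 to 3273 nt.

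The ratio also went with the level at 0 min. Genes with a density under 100 at 0 min had a median ratio of 0.236, and those of 4000 or more had 0.183 (rho -0.18). Of the least dense class 7.61% kept more and 2.37% kept less. Of the most dense class 0.867% kept more and 2.60% kept less. The 0 min density is the divisor of the ratio, so counting error at 0 min enters both quantities.

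**Figure D5:**
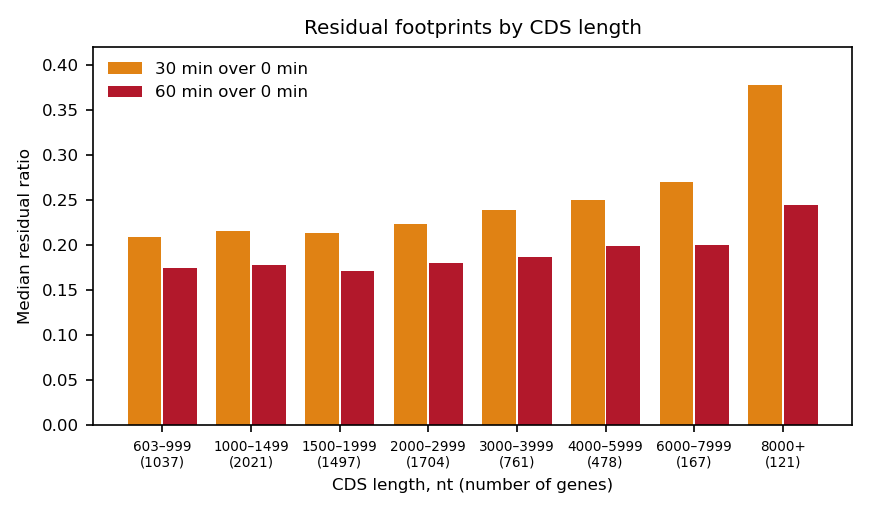
Median residual ratio of genes with at least 100 counts by class of CDS length in nt (number of genes in brackets), at 30 min (left bar of each pair) and 60 min (right bar), each over the single 0 min library. Bars are medians across genes of 1 library and carry no error. Both series are nearly level up to 3000 nt, and in the class of 8000 nt or more reach 0.378 and 0.244.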

How the data were processed

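Ribosome footprints of the 30, 60 and 0 min slices were used from tables as deposited, with read length 75 bp. Build mm10 is named, beside TopHat2 2.0.9 and Bowtie2 2.1.0, per the submitters' processing notes. The same notes list SAMtools 0.0.19, and Trimmomatic 0.32 beside cutadapt 1.7.1. Per the names of the deposited data, RSEM counted footprints over coding sequences without their ends. The expected counts deposited by the authors are whole numbers per gene and library. The density (signal) that the authors deposited equals the count per kilobase of coding sequence less 600 nt, divided by 1 factor per library (0.8816 at 30 min, 0.9733 at 60 min and 1 at 0 min), and how these factors were obtained is not stated. The deposited fold ratio of each time over 0 min is the quotient of these densities. The deposited rate scores of earlier times were not used. A second deposited table holds TPM scores rounded to whole numbers, and served as an alternative. A shift shared by all genes rests on these factors.

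Computed here were the residual ratio, the relative ratio, exact binomial intervals (SciPy 1.17.1) and edgeR 4.0.16 quasi-likelihood fits in R 4.3.3, with genes of a mean count under 10 left out and Benjamini-Hochberg adjustment at 0.05. DESeq2 1.42.0 was an alternative. The fits were tested on simulated data. Samples are 1 pool per time, so the 30 and 60 min libraries formed 1 late group without being replicates. The members of the gene lists and the comparison were chosen with earlier results of these data known. Named genes are the 12 highest and 12 lowest ratios with at least 100 counts at 0 min and 200 in all, the 2 highest and 2 lowest of each list with at least 100 counts at 0 min (30 where fewer reach it), the 10 genes with most counts, and list members past the test. Outside that rule, Camk2a, Gad1, Gad2, Schip1, Tmem119, P2ry13, Ptprz1, Aqp4, Cdh5, Des, Tnc, Ncan, Grin2a, Egr2, Egr3, Egr4 and Ptbp2 were named after their values were seen. Some genes that the rule names are not reported here. Coordinates are those of RefSeq genes on GRCm38.p6, matched by RefSeq transcript for 10293 of 10329 genes.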

Additional observations from a re-analysis of the deposited data

Results flagged for a closer look

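The table of rounded TPM values holds genes that the count table does not, with list genes on both sides of the typical mRNA there. Mbp, myelin basic protein, had 22644 and 22887 TPM at 30 and 60 min, against 6775 at 0 min, which is 1.84 on the log2 scale relative to the median gene (TPM + 1). Folr1, a folate receptor of choroid plexus, had 17 and 26 TPM against 4 (2.26). Fgfbp3, listed with astrocytes, had 70 and 112 TPM against 13 (2.81). On the low side, Hspb1, a small heat shock protein, was listed at 0 and 0 TPM against 33. Nkx6-2, an oligodendrocyte factor, had 2 and 15 TPM against 27 (-1.47), and Cldn5, an endothelial junction protein, had 0 and 21 against 24 (-1.03). Mbp thus lay opposite to Nkx6-2 and to the 21 of 23 myelin genes of the count table that were below the median gene. Its coding sequence was not compared with the others here.

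In 3 lists the median relative ratio had opposite signs at the late times, and the difference between the times was not tested. It was 0.079 at 30 min and -0.164 at 60 min in perivascular macrophages and blood leukocytes. In endothelial cells it was 0.071 and -0.014, and in lysosomal proteins 0.059 and -0.034. All 3 lists lay close to the typical mRNA at both times.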

How the results depend on the processing

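With 1 library per time, the depth of the late libraries limits every ratio (medians of 42 and 38 counts per gene at 30 and 60 min, against 208 at 0 min), and no spread between pools is known. No paired analysis was possible because each time has a single library. The count of genes at least 2-fold above the median ratio was 269 and ranged between 381 (30 min alone) and 437 (60 min alone) when 1 late library was left out. It was 438 with no minimum of counts and 122 with a minimum of 300. The count 2-fold below was 228, with 360 and 414 for the same single libraries, 459 with no minimum and 110 with a minimum of 300. All 269 and all 228 genes were among those found in each single late library, by construction of the rule. A length-adjusted centre gave 260 and 223, sharing 239 and 209 with the main sets, and the TPM table gave 254 and 229, sharing 186 and 192. Against 1714 higher and 1610 lower calls relative to the typical mRNA, DESeq2 made 346 and 155, and the fit with all 5 libraries in 3 phases made 684 and 577. The cause of these differences was not tested. Of the recomputed list medians 170 stayed close to the reported value, 70 moved and 6 changed sign. For perivascular cells the median was 0.079 at 30 min alone and -0.164 at 60 min alone, for endothelial cells 0.071 and -0.014 (-0.026 in the TPM table), and for lysosomal proteins 0.059 and -0.034 (0.022 length-adjusted). For chromatin modifiers it was -0.114 length-adjusted. No named gene tested this way changed sign. In the TPM table (plus 1) Pdgfra, Bcas1 and Bsg lost their 2-fold calls (-0.437, 0.995 and 0.81), while Nlrp3, Tlr2 and Ptprc moved by over 1.5 times and stayed low (-3.08, -3.23 and -4.57).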
